A study of Mus musculus with 29 samples.

Results

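The genes described here encode Polycomb repressive complex 2 (PRC2), the enzyme that methylates lysine 27 of histone H3. They were taken by name as 10 autosomal subunit genes among 20558 protein-coding genes on the segmented mouse chromosomes. Each was placed at its mm10 RefSeq position, and the H2Aub types of all segments over its body and over 100 kb on each side were read from 1 deposited segmentation of the genome. H2Aub is histone H2A carrying a single ubiquitin, which Polycomb repressive complex 1 (PRC1) attaches. The segmentation gives every stretch of chromosomes 1 to 19 a type from 1 to 5. No key to the types was at hand, so they are called by number here, and none of them stands for a known amount of H2Aub.

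The series measured H2Aub or H3K27me3 by CUT&RUN, in which an antibody-tethered nuclease releases the DNA around a mark, in 29 mouse libraries of 16 groups. Oocytes and embryos without maternal Eed are labelled Gdf9-Eed (fl/fl), in a B6/129 mixed background, and gave 2 H2Aub libraries each at the germinal vesicle, 4-cell and morula stages, the embryos having a wild-type PWK father. Wild-type H2Aub came from 16 libraries of 8 stages between the germinal vesicle oocyte and the E6.5 epiblast. Those of germinal vesicle oocytes, 4-cell embryos, morulae and 2 of 3 of the 2-cell libraries carried Eed (fl/fl) without Gdf9, and the others were wild type from B6/DBA mothers, with a PWK father after fertilisation. At the 4-cell stage, embryos labelled PR-DUB (OE) and PR-DUB (CTR), B6/DBA x PWK, gave 1 H2Aub and 2 H3K27me3 libraries per group, and wild-type germinal vesicle oocytes, B6/DBA, gave 1 further H3K27me3 library. The segmentation has no value for any library. Which libraries went into it is not given in the sources used here, its depth is unknown, and stages, Eed genotypes and PR-DUB groups were not compared. All values below describe 1 segmentation without replicates, and no test was made.

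PRC2 is built on a core of a catalytic subunit, Ezh2 or Ezh1, with Eed, Suz12 and a histone-binding protein such as Rbbp4. Accessory subunits join the core in either of 2 forms, one with Jarid2 and Aebp2 and the other with a Polycomb-like protein, Mtf2, Phf1 or Phf19. Jarid2 and Aebp2 can bind nucleosomes that carry H2Aub, which links PRC2 to the mark of PRC1. In the mouse oocyte and early embryo, H3K27me3 laid down by PRC2 is known for holding a set of genes silent on the maternal chromosome.

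The start of transcription lay in type 3 for Ezh1 and in type 1 for the other core genes. The bases just upstream are shown for 4 members, Ezh1 for type 3, Eed and Suz12 as the core genes with the fewest and the most CpG dinucleotides, and Phf1 for the shortest type 1 stretch. In each the listed start is also the outer end of the gene. The sequences are from RefSeq, build GRCm38.p6, which is the assembly of mm10. They run 5′ to 3′ on the strand of the gene over the 250 bases before the start, and capitals mark CpG dinucleotides. Ezh1 is at chr11:101226464-101226713 on the minus strand, Eed at chr7:89980977-89981226 on the minus strand, Suz12 at chr11:79992856-79993105 on the plus strand, and Phf1 at chr17:26932877-26933126 on the plus strand.
Ezh1: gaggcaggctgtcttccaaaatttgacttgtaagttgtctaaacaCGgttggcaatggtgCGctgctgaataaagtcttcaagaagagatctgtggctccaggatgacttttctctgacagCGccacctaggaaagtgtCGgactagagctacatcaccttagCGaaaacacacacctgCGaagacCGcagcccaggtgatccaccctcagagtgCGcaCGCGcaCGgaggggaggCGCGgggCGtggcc
Eed: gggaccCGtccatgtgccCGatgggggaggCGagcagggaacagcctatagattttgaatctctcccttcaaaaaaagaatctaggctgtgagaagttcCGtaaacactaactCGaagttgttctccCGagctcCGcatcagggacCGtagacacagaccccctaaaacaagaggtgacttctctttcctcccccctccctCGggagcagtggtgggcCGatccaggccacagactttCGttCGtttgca
Suz12: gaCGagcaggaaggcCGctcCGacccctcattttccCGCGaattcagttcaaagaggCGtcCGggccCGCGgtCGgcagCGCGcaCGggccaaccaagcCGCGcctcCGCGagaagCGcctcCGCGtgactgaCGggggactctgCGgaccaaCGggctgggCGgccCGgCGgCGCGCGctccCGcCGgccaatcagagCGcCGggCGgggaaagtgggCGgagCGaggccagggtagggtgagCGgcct
Phf1: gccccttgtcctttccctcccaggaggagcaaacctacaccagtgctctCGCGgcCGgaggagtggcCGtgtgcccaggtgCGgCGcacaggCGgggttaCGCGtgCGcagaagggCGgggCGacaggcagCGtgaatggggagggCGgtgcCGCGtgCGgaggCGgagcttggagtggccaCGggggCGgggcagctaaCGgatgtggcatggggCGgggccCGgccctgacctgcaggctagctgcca
CpG occurs 14 times in the Ezh1 stretch, 12 times in that of Eed, 37 times in that of Suz12 and 23 times in that of Phf1.

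The body of each of the 10 genes lay wholly inside 1 type. Type 1 held 8 of them (Ezh2, Eed, Suz12, Rbbp4, Jarid2, Aebp2, Mtf2 and Phf1) and type 3 held 2 (Ezh1 and Phf19), while types 2, 4 and 5 held no member. Among all 20558 protein-coding genes, 68.7% lay wholly in 1 type. Type 1 held 24.9% of all genes wholly, type 3 24.9%, type 4 9.50%, type 5 7.33% and type 2 1.99%. By the type with the largest share of the body, type 1 took 37.2% of all genes, type 3 33.8%, type 4 14.0%, type 5 9.53% and type 2 5.44%. The first listed start site of each member lay inside its body and so, with the body wholly in 1 type, had to share its type. Of the 16457 protein-coding genes with a listed promoter, 84.1% had the start in the type with most of the body. The other start sites that RefSeq lists for Jarid2, Aebp2 and Mtf2 lay in type 1 as well, 14 starts in all over the 10 genes.

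**Figure D1:**
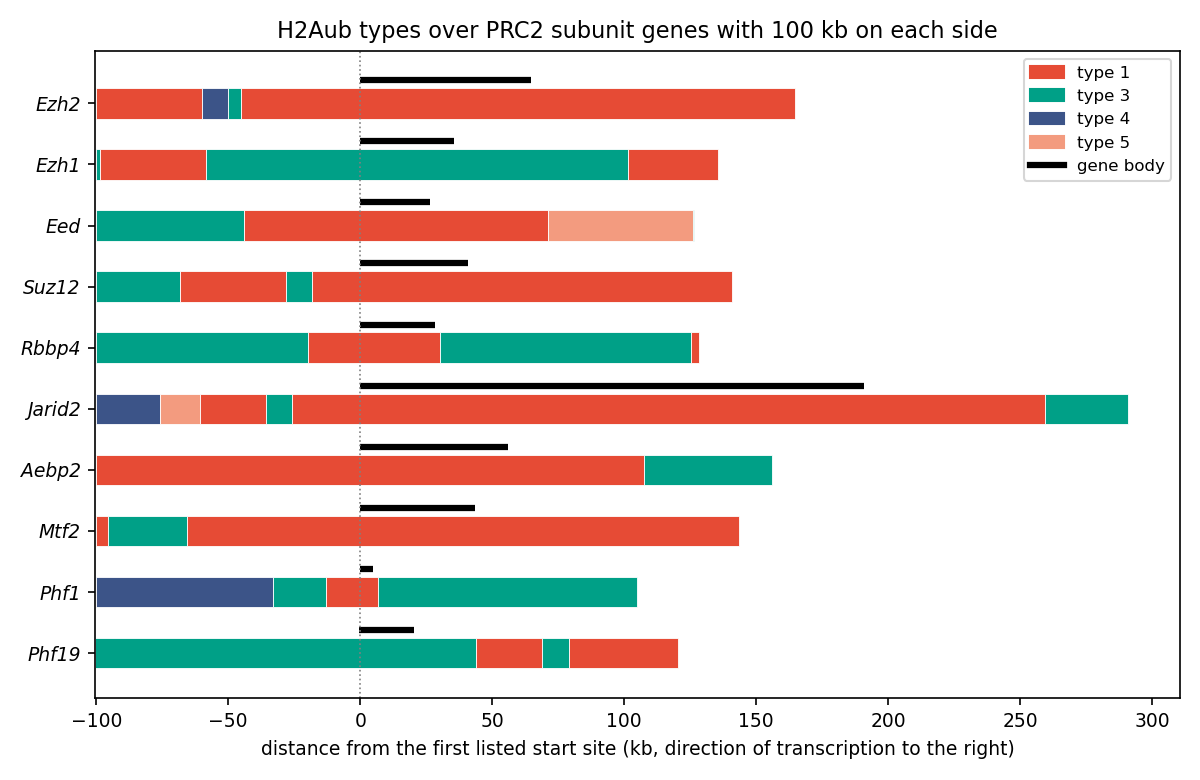
H2Aub types over the 10 PRC2 subunit genes with 100 kb on each side. The x axis is the distance from the first listed start site in kb, in the direction of transcription; each row is 1 gene, coloured bars are stretches of 1 type and black bars are gene bodies. Bodies lie in type 1 in 8 genes and in type 3 in Ezh1 and Phf19, and no window holds type 2.

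The catalytic pair lay in different types. Ezh2 (chromosome 6, 47530274 to 47595270, minus strand), the main H3K27 methyltransferase of dividing cells, lay in a type 1 stretch of 230 kb. Its window was 94.3% type 1, the largest share among the members, with 1.89% type 3 and 3.77% type 4. The type 4 part was 1 stretch of 10 kb (47645001 to 47655000), upstream of the gene and 49.7 kb from the body, with a 5 kb type 3 stretch on its near side. The nearest genes were Cul1, a ubiquitin ligase scaffold, 4.13 kb downstream and wholly in type 1, and the predicted gene Gm40369 upstream, 50.6% of which was type 1. Ezh1 (chromosome 11, 101191115 to 101226463, minus strand), the paralogue that predominates in many non-dividing cells, lay in a type 3 stretch of 160 kb between type 1 stretches of 40 kb upstream and 35 kb downstream. Its window was 68.6% type 3 and 31.4% type 1. Of the 16 protein-coding genes around Ezh1, 11 shared its type, among them Cntnap1, an axonal adhesion gene 0.391 kb downstream, and Ramp2, a receptor-modifying protein gene 19.9 kb upstream. Becn1, an autophagy gene 61.8 kb upstream, and Psme3, a proteasome activator gene 89.8 kb upstream, were wholly type 1, as was Retreg3 at 71.3 kb on the other side. On a scale from 0, for equal type shares in both flanks and the body, to 1, for no type in common, Ezh2 and Ezh1 were 0.737 apart. The scale paired flanks by position on the chromosome, so for genes on opposite strands upstream flanks were set against downstream flanks. Of the other pairs of members, only Ezh2 and Phf19 were less alike on this scale, at 0.763.

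The other core genes all lay in type 1, in stretches of 50 to 175 kb. Eed (chromosome 7, 89954654 to 89980976, minus strand), the subunit that binds H3K27me3 and the gene removed from the oocyte in this series, lay in a stretch of 115 kb. Upstream of it came 75 kb of type 3 and downstream 55 kb of type 5, so that its window was 50.8% type 1, 24.9% type 3 and 24.3% type 5. The type 5 stretch held Ccdc81, a coiled-coil protein gene 51.0 kb away and wholly in that type, while the nearer Hikeshi, a nuclear import factor gene for heat shock proteins, was wholly type 1. Suz12 (chromosome 11, 79993106 to 80034123, plus strand), the scaffold of the complex, had type 1 over its whole downstream flank. A type 3 stretch of 10 kb began 18.1 kb upstream of its start, and its window was 82.6% type 1 and 17.4% type 3. The nearest genes, Utp6 upstream and Crlf3, a cytokine receptor-like gene, downstream, were both wholly type 1.

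Rbbp4 (chromosome 4, 129307100 to 129335370, minus strand), a histone chaperone that also serves other chromatin complexes, lay in a type 1 stretch of only 50 kb between 2 type 3 stretches of 95 kb each. The lower end of its body was 2.1 kb from the border. Its window was therefore 76.8% type 3 and 23.2% type 1, although the whole body was type 1. Zbtb8os, whose body began 0.162 kb upstream in the opposite orientation, was also wholly type 1. The end of the Rbbp4 body overlapped Sync, an intermediate filament gene that was 80.2% type 3. Farther out, C77080 at 45.7 kb downstream and Zbtb8b at 90.4 kb upstream were wholly type 3.

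The accessory genes that link PRC2 to H2Aub both lay in long type 1 stretches. Jarid2 (chromosome 13, 44730774 to 44921643, plus strand), the longest member at 191 kb, lay in a stretch of 285 kb. Of 1005 protein-coding genes at least as long, 12.3% lay wholly in 1 type, and 40 of them (3.98%), Jarid2 included, wholly in type 1. Its window held 6 stretches of 4 types, more than that of any other member. Going upstream from the gene, 10 kb of type 3, 25 kb of type 1, 15 kb of type 5 and then a type 4 stretch of 50 kb (44605001 to 44655000) followed each other, the last beginning 75.8 kb from the body. Dtnbp1, the dysbindin gene 0.436 kb downstream, was 84.9% type 1. Aebp2 (chromosome 6, 140622454 to 140678472, plus strand), a zinc finger protein gene, lay in a type 1 stretch of 300 kb that filled its whole upstream flank. With 81.1% type 1 and 18.9% type 3 in 2 stretches, its window had the fewest stretches. The nearest gene, Plekha5, was 96.3% type 1.

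The 3 Polycomb-like genes were 0.549 to 0.679 apart on the same scale. Phf19 is on the minus strand, so its upstream flank was set against the downstream flanks of Mtf2 and Phf1. Distances with flanks paired by direction of transcription are not given here. The Polycomb-like proteins recruit PRC2 to DNA rich in unmethylated CpG. Mtf2 (chromosome 5, 108065660 to 108109219, plus strand) lay in the longest stretch of all members, 340 kb of type 1, and 22.1% of all genes wholly in type 1 lay in a stretch at least that long. Its window was 87.7% type 1, with 1 type 3 stretch of 30 kb that ended 65.7 kb upstream. Tmed5, a secretory pathway gene 12.3 kb downstream, was wholly type 1, and Dipk1a, 78.6 kb upstream, was 78.4% type 1. Phf1 (chromosome 17, 26933127 to 26937908, plus strand) had the shortest body, 4.78 kb, and the shortest stretch, a type 1 island of 20 kb (26920001 to 26940000). Of the 5129 genes wholly in type 1, 115 (2.24%) lay in a stretch that short or shorter. On one side of the island 20 kb of type 3 led to a type 4 stretch of 85 kb, and on the other lay 375 kb of type 3. The type 4 stretch held Nkx2-5, a heart homeobox gene 88.1 kb from Phf1 that is named here after its type was seen. Its window was 9.77% type 1, 57.6% type 3 and 32.7% type 4. The genes on either side were close, Cuta at 0.064 kb and Kifc5b at 0.548 kb, and lay in type 1 over 100% and 81.2% of their bodies, while Zbtb9 and Ggnbp1 lay wholly in type 3. Phf19 (chromosome 2, 34893752 to 34914353, minus strand) lay in a type 3 stretch of 190 kb, which filled its whole upstream flank and held Traf1, a TNF receptor signalling gene. Its window was 70.0% type 3 and otherwise type 1, beside 68.6% and 31.4% for Ezh1. Cutal, 1.62 kb downstream, was wholly type 3, and Fbxw2, a ubiquitin ligase subunit gene, and Rabepk, 67.5 and 93.6 kb downstream, were wholly type 1.

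**Figure D2:**
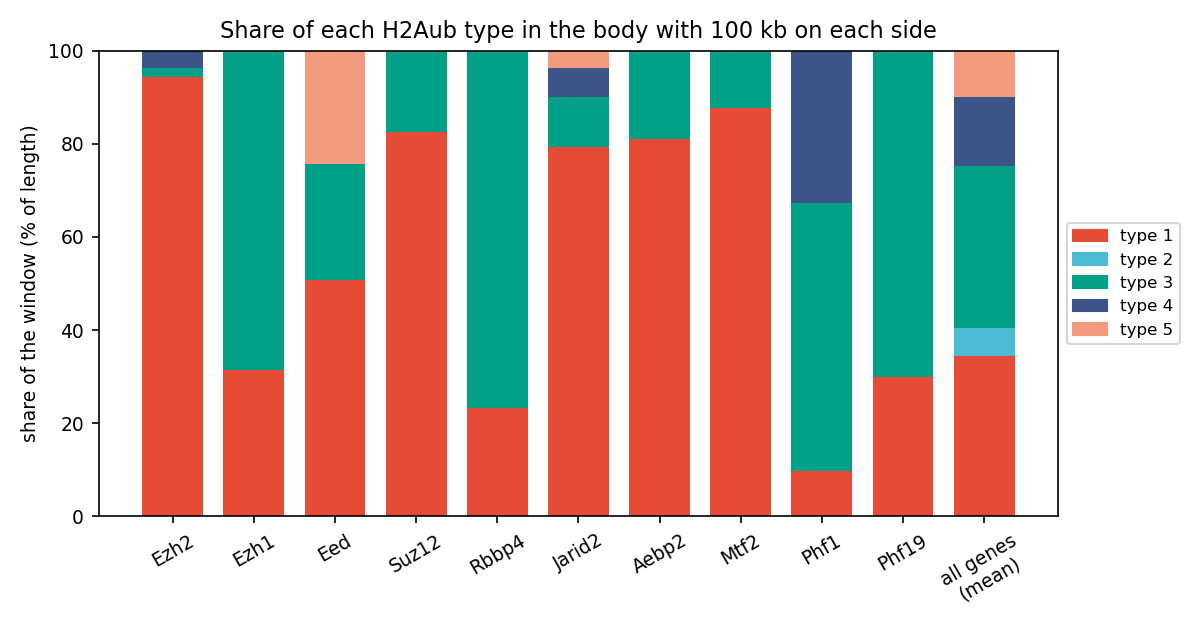
Share of each H2Aub type, as a percentage of length, in the gene body with 100 kb on each side. Each bar is 1 PRC2 gene and the last bar is the mean over all 20558 protein-coding genes; type 1 ranges from 9.77% for Phf1 to 94.3% for Ezh2, against a mean of 34.5%.

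Over the 10 windows the median share of type 1 was 65.1%, against 28.6% over all protein-coding genes, and that of type 3 was 21.9%, against 31.6%. Pooled by length the windows were 60.0% type 1, 33.1% type 3, 4.03% type 4 and 2.79% type 5. The pooled windows of all protein-coding genes were 34.1% type 1, 33.3% type 3, 14.8% type 4, 10.7% type 5 and 7.11% type 2. Types 1 and 3 occurred in all 10 windows, against 78.8% and 82.1% of the windows of all genes. Type 2 was absent from all 10, and it occurred in 35.6% of the windows of all genes and was absent from 64.4%. Only types 1 and 3 occurred around 6 members (Ezh1, Suz12, Rbbp4, Aebp2, Mtf2 and Phf19), against 28.6% of all genes. Type 4 occurred around 3 members (Ezh2, Jarid2 and Phf1) and 48.0% of all genes, in each of the 3 on the upstream side. These counts depended on the width, with type 4 around 2 members within 50 kb (37.4% of all genes) and 6 within 200 kb (61.9%), and around Phf1 alone where at least 25 kb of it was asked for (37.5%). The pooled share of type 4 within 50 kb was 1.13% for the members and 14.3% for all genes. Type 5 occurred around Eed and Jarid2 and around 25.6% of all genes, within 50 kb around Eed alone (21.0% of all genes) and within 200 kb around 2 members (32.7%). At least 25 kb of type 5 lay around Eed alone and around 20.3% of all genes. The windows held a median of 4 stretches, with a range of 2 to 6, against a median of 5 over all genes.

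The type 1 stretches around the 8 members had a median length of 202 kb, against 155 kb for all 5129 genes wholly in type 1, whose quartiles were 80 and 310 kb. Gene length was not matched, and a stretch around a whole body is at least as long as the body. The median gene length was 38.2 kb over the 10 members and 17.6 kb over all protein-coding genes. Of the 16 ends of these 8 stretches, 15 met type 3 and 1, downstream of Eed, met type 5. Over the genes wholly in type 1, 71.4% of ends met type 3, 16.5% type 2, 10.8% type 5 and 1.39% type 4. Both ends met type 3 in 7 of the 8 members, against 58.5% of all such genes. The median distance from the 8 bodies to the nearest type 3 was 34.9 kb, against 31.9 kb for all genes wholly in type 1. Of the 53 other protein-coding genes in the windows, 29 lay mostly in type 1 and 22 in type 3, while type 4 held 1 (Nkx2-5) and type 5 held 1 (Ccdc81). Over all protein-coding genes these types held 37.2%, 33.8%, 14.0% and 9.53%. The 53 are not independent of the members, since many lay in the same stretches, and 16 of them came from the Ezh1 window.

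The genes with the most similar type shares in flanks and body included, for Ezh1, Flrt1 (distance 0.00371) and Marcksl1 (0.00698), for Suz12, Phtf2 (0.00186) and Birc3 (0.00213), and for Rbbp4, Csnk1a1 (0.00272) and Ywhag (0.00784). For Aebp2 they were Rnaset2a and Chd8, and for Phf19 Pga5 and Metap1d, all within 0.00157. The windows of Eed, Jarid2 and Phf1 had no such close match, the nearest being Scfd1 (0.0521) and Nup35 (0.0708) for Eed, Atp6v1c1 (0.0555) and Ticam2 (0.0678) for Jarid2, and Tm9sf4 (0.0496) and Nup153 (0.0519) for Phf1. For Ezh2 3 genes tied at 0.0167 and for Mtf2 21 genes tied at 0. Among the members, Suz12 and Mtf2 were the most alike, at 0.0396. All these distances paired flanks by position on the chromosome, not by direction of transcription.

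Genes of the opposing and partner pathways did not all share this placement. Of 23 PRC1 genes on the segmented chromosomes, 9 lay mostly in type 1, among them L3mbtl2, Pcgf3, Pcgf5 and Pcgf6. Type 3 held 11, among them Bmi1, Cbx2, Cbx6 and Cbx7, type 4 held 2 and type 2 held 1, Auts2. Type 1 thus held 39.1% of the PRC1 bodies, near the 37.2% over all genes, and type 3 held 47.8%, against 33.8%. In the PRC1 windows the median share was 25.1% for type 1 and 51.5% for type 3, against 28.6% and 31.6% over all genes. By the first listed start site, type 1 held 8 of 10 PRC2 genes, 2 of the 17 PRC1 genes with a listed start and 32.2% of all such protein-coding genes. Type 3 held 2 PRC2 genes, 13 PRC1 genes and 39.8% of all genes. The other 2 PRC1 starts were type 4, the type of 14.9% of all starts, with 9.49% for type 5 and 3.60% for type 2. The start lay in the type of the body in 10 of these 17 PRC1 genes and in 84.1% of all genes with a listed start. For the PRC2 genes the 10 of 10 follows from bodies wholly in 1 type and is no separate result. Of the 23 PRC1 genes, 12 lay wholly in 1 type, as did 68.7% of all genes. Type 2 occurred in the windows of no PRC2 gene, of 8 of the 23 PRC1 genes and of 35.6% of all genes, so the PRC1 count is near that over all genes. Of 11 genes of PR-DUB, the deubiquitinase complex for H2A, and of other H2A deubiquitinases, 8 (72.7%) had type 1 as the largest share of the body. Over all genes that share was 37.2%. In the windows of the 11 genes the median share was 36.4% for type 1 and 47.4% for type 3. The PRC2 windows had medians of 65.1% and 21.9%. The 8 included Asxl1, Asxl2 and Foxk1, and Asxl3, at 48.3% type 1. The other 3, in type 3, were Bap1, the catalytic subunit, Kdm1b and Usp21. Of 9 listed start sites, 5 lay in type 1 and 4 in type 3.

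Of 5 other PRC2 partners and H3K27 demethylases, Lcor and Lcorl lay in type 1, Kdm6b and Skida1 in type 3 and Epop, a partner of the Polycomb-like form, wholly in type 4. Of 21 other histone lysine methyltransferase genes, 18 (85.7%) lay mostly in type 1, including Ash1l, Dot1l, Ehmt1 and Ehmt2. Type 1 held 80.0% of the PRC2 genes and 37.2% of all genes. Of their 15 listed start sites, 9 were type 1, 5 type 3 and 1 type 4, and 11 had the type of the body. The start had the type of the body in 84.1% of all genes with a listed start. The median share of type 1 was 65.1% in the windows of the PRC2 genes and 51.7% in those of these 21. Kmt2b and Kmt5c lay in type 3 and Kmt2a wholly in type 4. Of these 21, 13 lay wholly in 1 type, as did 68.7% of all genes.

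**Figure D3:**
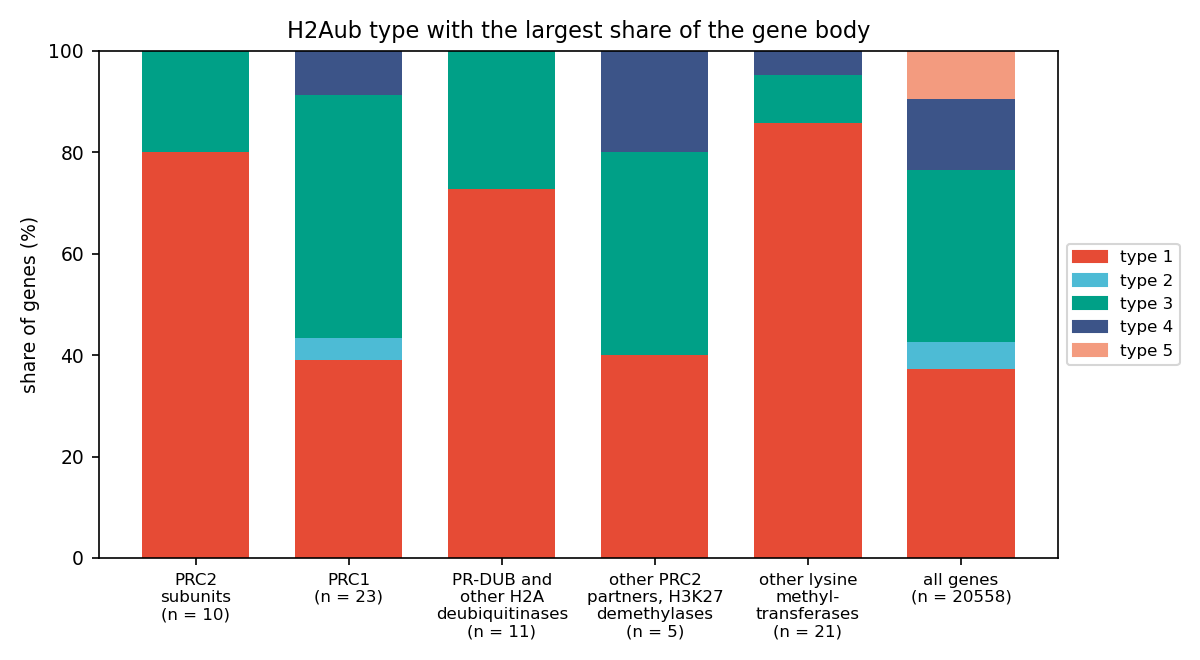
Share of genes, as a percentage, by the H2Aub type with the largest share of the gene body. Bars are the 10 PRC2 subunit genes, 23 PRC1 genes, 11 genes of PR-DUB and other H2A deubiquitinases, 5 other PRC2 partners and H3K27 demethylases, 21 other histone lysine methyltransferase genes and all 20558 protein-coding genes. Type 1 holds 80.0% of the PRC2 genes, 39.1% of the PRC1 genes and 37.2% of all genes.

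Promoters were taken as 250 bases before and 50 after the first listed start. CpG, the dinucleotide that Polycomb-like proteins bind when unmethylated, occurred a median of 27 times in the promoters of the 10 members, against 14 times in those of all 16457 protein-coding genes with a listed promoter, whose quartiles were 4 and 25. The ratio of observed to expected CpG had a median of 0.917 over the members, against 0.595. It was highest in Rbbp4 (1.12), Suz12 (1.09) and Mtf2 (1.09), and it was 0.999 in Ezh2, 0.882 in Ezh1 and 0.952 in Phf19. Among the first listed promoters only that of Aebp2 fell under the median of all genes, at 0.232. At the later starts listed for 3 members the ratio was 0.774 and 0.215 in Aebp2, 0.132 in Mtf2 and 0.831 in Jarid2. By type at the start site the medians of all promoters were 0.677 (type 1), 0.675 (type 3), 0.487 (type 4), 0.347 (type 2) and 0.192 (type 5). The Ezh1 and Phf19 promoters in type 3 thus lay inside the range of the 8 members in type 1.

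**Figure D4:**
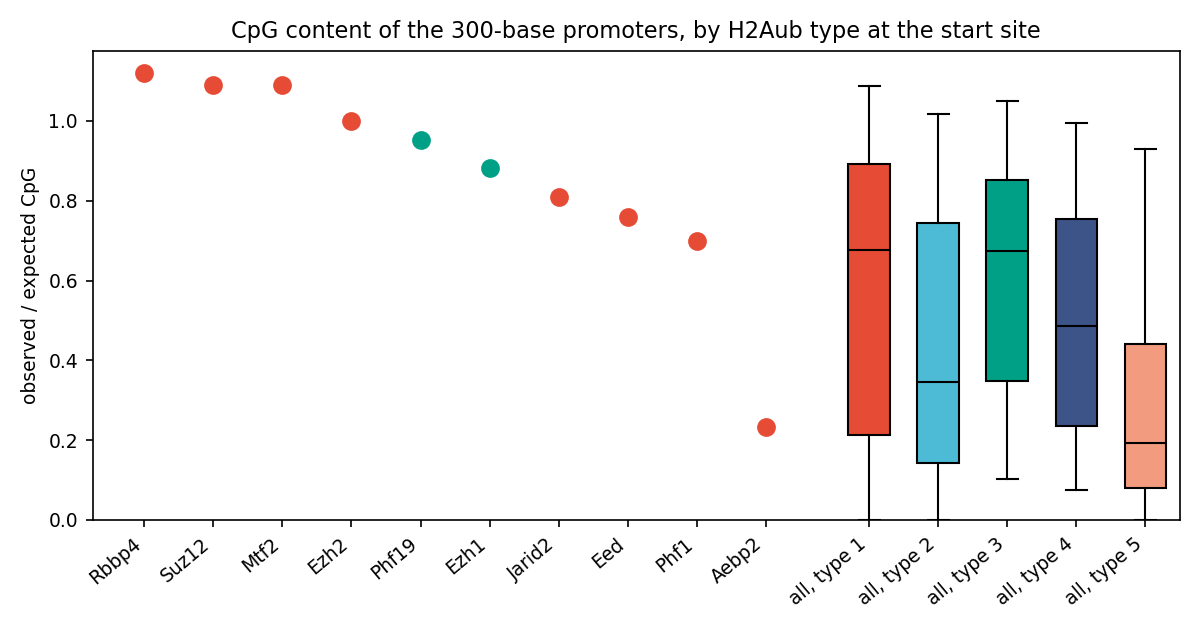
Ratio of observed to expected CpG in the 300-base promoters. Points are the first listed promoters of the 10 PRC2 genes, coloured by the H2Aub type at the start site (red, type 1; green, type 3); boxes give the median and quartiles, and whiskers the 5th and 95th percentiles, of all protein-coding promoters by type. Of the 10 members, 9 lie above 0.595, the median of all promoters, and Aebp2 lies at 0.232.

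Short motifs were searched on both strands of these 300 bases. GGGCGG, the core of the site of Sp1, occurred in 6 of 10 members and 47.3% of all promoters, and CCAAT, the box bound by NF-Y, in 5 of 10 and 38.9%. TATAAA occurred in no first listed promoter of a member and in 13.5% of all first listed promoters, and CCGGAA, the core of sites of ETS factors, in none and 19.5%. The second listed promoter of Jarid2 held both, and that of Aebp2 held CCGGAA. The forms TTCCCGC and TTGGCGC, both of which occur in sites of E2F factors, were found in 2 members each, Suz12 and Phf19 for TTCCCGC and Ezh2 and Rbbp4 for TTGGCGC. They occurred in 6.11% and 3.18% of all promoters. CACGTG occurred in Rbbp4 and in 7.96% of all promoters. A match says only that the letters are present.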

How the data were processed

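CUT&RUN for H2Aub or H3K27me3 was done in 29 libraries, whose mark and 16 groups were taken from the labels' titles. For what the authors did with the reads, the submitters' processing notes name the build mm10 and the tools deepTools 3.0.2, Picard 2.8.0, Bowtie2 2.3.4.3 and Trim Galore 0.4.5. The deposited file names itself a set of ChromHMM types. Its version, its input libraries and a key to its types were not given in the sources used here. Its value is a category from 1 to 5 in 31563 segments, all in steps of 5 kb. In 261 of 492539 bins 2 segments overlapped, and the shorter was used. Adjoining segments of 1 type were joined into a stretch.

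Genes came from RefSeq GRCm38.p6, and 333 genes placed on scaffolds were left out. Strand and start sites came from its promoter table, in which all 10 members were matched. Likeness was the summed absolute difference of the shares of the 5 types, divided by 2 and averaged over both flanks and the body. The flank at lower positions was paired with the flank at lower positions, whatever the strand of the genes. With no value per library, no test was made and no interval given. Computation used Python 3.11.15, numpy 2.4.6 and pandas 2.3.3, and the interval code was checked on a simulated segmentation. The members and lists were chosen with earlier results of these data known. The text names all members, the nearest protein-coding gene on each side, up to 3 others wholly in another type, and up to 4 genes per type of each related list in alphabetical order. Some genes that this rule takes are not reported here. No protein sequence was used, and genes on X and Y, such as Rbbp7, Ezhip, Kdm6a and Uty, were not analysed here.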

Additional observations from a re-analysis of the deposited data

How the results depend on the processing

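The types of the member bodies did not change with the longer segment kept in overlaps. They were also the same under the middle bin, the start site bin and a minimum of 90% of the body in 1 type. Those 3 settings could give nothing else, because each body lay wholly in 1 type and held its first listed start. Without segments under 25 kb the Phf1 body had no type, which left 7 members in type 1. The window shares depended on the width. With 50 kb on each side they were 71.5% type 1, 27.0% type 3, 1.13% type 4 and 0.354% type 5, with 200 kb 53.8% type 1 and 37.5% type 3, and with flanks alone 52.6% type 1 and 38.8% type 3. Type 4 occurred around 6 members within 200 kb and around 1, Phf1, if at least 25 kb was asked for. Type 5 occurred around 1 member, Eed, within 50 kb or at 25 kb or more. In settings chosen after seeing the data, type 2 occurred within 200 kb of 1 member, Jarid2 (26.6 kb), and the median number of stretches was 6.5 within 200 kb. Over all annotated genes the shares of types 1 to 5 were, in that order, 33.0%, 7.2%, 31.0%, 15.9% and 12.8%. Of 79 alternative values, 60 stayed within 1.5 times (counts and medians of stretches), the exact 95% binomial interval over bins or genes (shares) or 1 SD over members (median CpG). Neighbouring bins of 1 stretch share a type and are not independent, so that interval measures no spread. The values that stayed include the counts of bodies in types 2, 4 and 5, which were 0 in every setting. The 60 of 79 is therefore no measure of robustness. No paired analysis was possible because the segmentation has no column for any library, and for the same reason no replicate was left out. Depth is unknown, and the step of 5 kb is longer than the Phf1 body, so differences within a gene of that size cannot be seen.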
